A study of Mus musculus with 8 samples.

Results

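Vitamin transporters are the membrane proteins that bring water-soluble vitamins into cells. The 7 genes examined were Slc23a1 and Slc23a2 (ascorbate, vitamin C), Slc46a1 and Slc19a1 (folate), Slc19a2 and Slc19a3 (thiamine, vitamin B1), and Slc5a6 (biotin and pantothenate). They were taken as every probe set whose only annotated gene symbol was one of these names, which gave 12 probe sets for all 7 genes, of 18443 probe sets and 10401 named genes in all. The set was selected on a measured value, since a probe set of Slc23a2 was one of the few past the threshold between the genotypes in these arrays, and the other genes were added by function. The differences of the 12 probe sets are therefore given as a description, and no test of them is offered as support.

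Expression was profiled by single-colour array in enterocytes, the absorptive cells of the gut epithelium, from the small intestine of male C57BL/6 mice, 2.5 to 3.0 months old. In IE-Cpr-null mice the intestinal epithelium is without NADPH-cytochrome P450 reductase (Cpr), the electron donor of microsomal P450 enzymes, and these mice were set against wild-type (WT) littermates, with no treatment of either genotype beyond a standard diet. There were 4 arrays per genotype with RNA of 2 mice on each, so that 8 mice of each genotype were used and errors measure the spread between pools. The promoter behind the deletion is not given in the sources used here, and the targeted gene is not analysed here.

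The deposited values are on a log2 scale and each probe set is centred on the median of the 4 WT arrays. A value of 0 means equal to the WT median signal and a negative value means less, but the level of expression itself is unknown and levels cannot be compared between genes. For the same reason the enterocyte label could not be checked by the level of its markers. The 6 measured enterocyte markers had array means from -0.11 to 0.040. Smooth muscle and stromal markers were high on IE-Cpr-null replicate 1 (list mean 4.48) and WT replicate 2 (1.85), hepatocyte markers on IE-Cpr-null replicates 2 (5.00) and 3 (2.94), and pancreatic acinar markers were low on WT replicate 3 (-4.87) and on all IE-Cpr-null arrays (-5.09 to -1.91) against -0.66 to 1.57 on the other WT arrays. Crypt and Paneth markers had list means from -0.96 (IE-Cpr-null replicate 2) to 1.49 (IE-Cpr-null replicate 1), with 0.81 on WT replicate 3. All 7 measured enteroendocrine markers were lower on average in IE-Cpr-null. In pooled tissue RNA, fewer cells of a type and less transcript per cell cannot be told apart.

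As background, ascorbate enters cells against its gradient by sodium-coupled transport: SLC23A1 works mainly in the apical membrane of intestinal and renal epithelia, and SLC23A2 serves most other cells and the basolateral side of enterocytes. Dietary folate is taken up in the acid lumen of the upper small intestine by the proton-coupled carrier SLC46A1, while SLC19A1, the reduced folate carrier, works at neutral pH and is an anion exchanger. The related proteins SLC19A2 and SLC19A3 carry thiamine, and SLC5A6 is a sodium-dependent multivitamin carrier. Mice, unlike humans, can also make ascorbate in the liver.

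Sequence upstream of the start was matched by symbol in RefSeq annotation of GRCm38.p6 for 6 of the 7 genes. The windows shown are the 250 bases before the most upstream listed start of the 4 carriers whose transcripts differed most between the genotypes or did not overlap between them, written from the 5′ end to the 3′ end on the strand of the gene. Capitals mark matches on either strand to the GC box GGGCGG, bound by Sp1-type factors, to GCGTG, the core of the aryl hydrocarbon receptor element, to the E-box CACGTG, or to the AP-1 site TGACTCA. No matches overlapped in these windows.
Slc23a2, chr2:132145321-132145570, - strand: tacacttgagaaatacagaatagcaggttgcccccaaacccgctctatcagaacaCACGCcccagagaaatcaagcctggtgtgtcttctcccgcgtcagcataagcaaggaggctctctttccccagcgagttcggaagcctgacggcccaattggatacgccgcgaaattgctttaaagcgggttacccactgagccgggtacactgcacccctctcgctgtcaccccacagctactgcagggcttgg
Slc46a1, chr11:78465451-78465700, + strand: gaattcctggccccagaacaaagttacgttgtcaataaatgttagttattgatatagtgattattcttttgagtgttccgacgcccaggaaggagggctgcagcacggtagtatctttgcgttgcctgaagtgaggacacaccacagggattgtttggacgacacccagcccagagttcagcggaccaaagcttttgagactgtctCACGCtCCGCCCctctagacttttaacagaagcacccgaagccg
Slc19a2, chr1:164248796-164249045, + strand: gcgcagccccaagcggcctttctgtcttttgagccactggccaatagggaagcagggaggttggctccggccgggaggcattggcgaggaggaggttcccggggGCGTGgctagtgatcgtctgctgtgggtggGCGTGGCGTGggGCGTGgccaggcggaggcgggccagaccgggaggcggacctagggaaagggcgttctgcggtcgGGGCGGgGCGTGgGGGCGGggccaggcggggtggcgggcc
Slc19a3, chr1:83038449-83038698, - strand: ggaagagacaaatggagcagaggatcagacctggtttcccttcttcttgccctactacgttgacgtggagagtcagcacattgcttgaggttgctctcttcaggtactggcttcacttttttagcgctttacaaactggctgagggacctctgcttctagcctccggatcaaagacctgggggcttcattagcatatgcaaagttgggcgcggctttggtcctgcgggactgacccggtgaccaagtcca

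The Slc23a2 window held 1 match, to the aryl hydrocarbon receptor core, and Slc46a1 held 1 GC box and 1 such core. Slc19a2, with a G and C content of 73.2%, held 2 GC boxes and 5 cores. The window of Slc19a3 held no match to any of these letters. Of 32851 windows of the same length before annotated starts, 32.7% held the GC box, 28.2% the aryl hydrocarbon receptor core, 6.02% the E-box and 4.46% the AP-1 site. These matches describe the letters only.

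Of the 12 transporter probe sets, 9 were lower in IE-Cpr-null and 3 higher, and the median difference was -0.55. Over all 18443 probe sets 42.5% were lower and the median was 0.016. The limma fit across all probe sets put 1 of the 12 past an adjusted p of 0.05, beside 0.0217% of all probe sets. Fitted as the mean of each gene's probe sets, 0 of the 7 genes passed, beside 0.0288% of all genes, and 4 had an unadjusted p under 0.05, beside 8.69%. Slc23a2 then differed by -1.05 (SE 0.145, adjusted p = 0.0793). With array weights 3 of the 12 probe sets passed, beside 4.02% of all probe sets. In 5 of the 12 every IE-Cpr-null array lay below every WT array, as it did in 2.47% of all probe sets. These counts come from the contrast on which the set was chosen, and nothing is read from them. Lower probe sets were those of Slc23a2, Slc46a1, Slc19a1, Slc19a2 and Slc19a3, and higher ones those of Slc23a1 and Slc5a6.

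**Figure D1:**
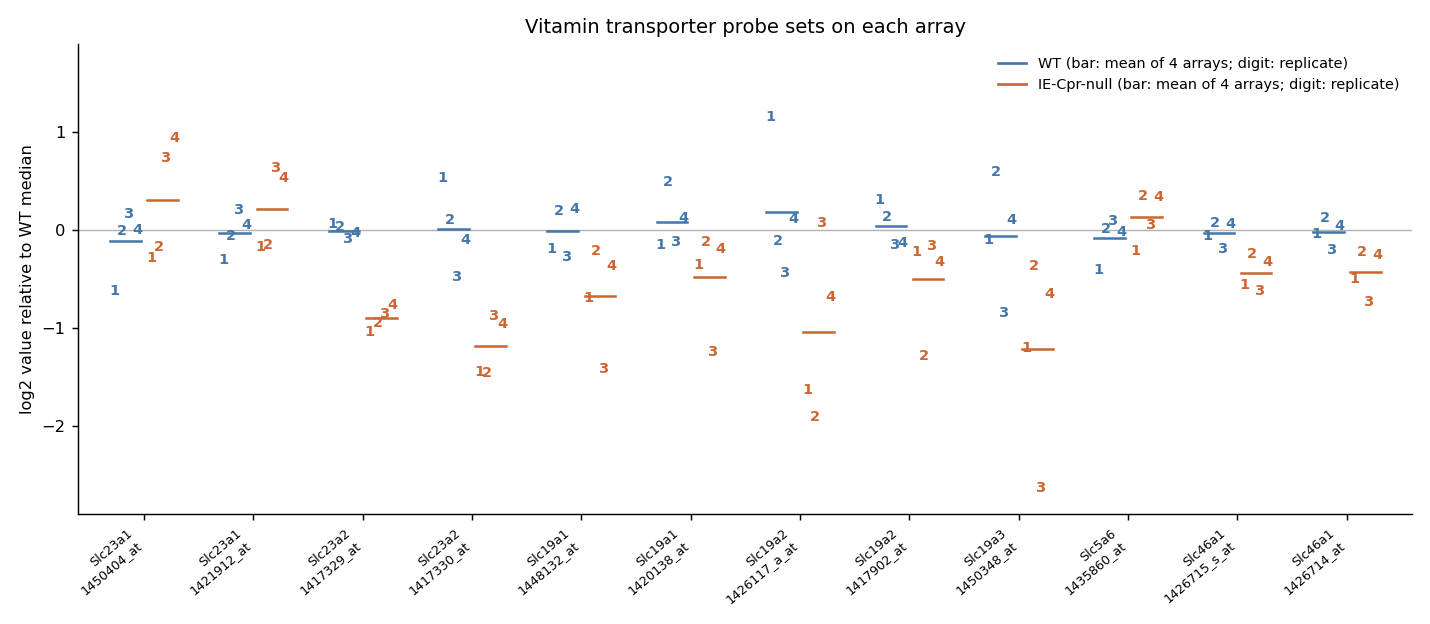
Values of the 12 vitamin transporter probe sets on each of the 8 arrays, in log2 relative to the WT median (vertical axis), with digits for replicates and bars for the mean of 4 arrays. Both Slc23a2 probe sets separate the genotypes, with every IE-Cpr-null array at or below -0.77, while Slc23a1 and Slc5a6 overlap.

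Slc23a2 encodes the second sodium-dependent ascorbate transporter. Its leading probe set, 1417329_at, read 0.058, 0.034, -0.094 and -0.034 on WT replicates 1 to 4, and -1.04, -0.95, -0.85 and -0.77 on IE-Cpr-null replicates 1 to 4. The groups were far apart, and the lowest WT array lay 0.67 above the highest IE-Cpr-null array. The mean difference was -0.89 (SE 0.0664, 95% interval -1.05 to -0.74), a 1.86-fold lower signal in IE-Cpr-null, with an adjusted p of 0.00953 in limma as the value that drew attention to the gene. With quantile normalization the difference was -0.70 (adjusted p = 0.164), and the call was also lost without WT replicate 1 (adjusted p = 0.072), 2 (0.0832) or 4 (0.081), without both arrays rich in muscle markers (0.0602), and without both rich in hepatocyte markers (0.147). The size hardly moved in these last 5 settings, from -0.90 to -0.83.

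The second Slc23a2 probe set, 1417330_at, read 0.53, 0.10, -0.48 and -0.10 on the WT arrays and -1.45, -1.45, -0.88 and -0.96 on the IE-Cpr-null arrays. It too was lower on every IE-Cpr-null array than on any WT array, but WT replicate 3, the lowest WT array, stood only 0.40 above IE-Cpr-null replicate 3. Its difference was larger, -1.20 (SE 0.235, 95% interval -1.75 to -0.65), a 2.30-fold lower signal, and its adjusted p of 0.252 in limma lay outside the threshold. The SD over the WT arrays was 0.0685 in the leading probe set and 0.422 in the second.

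The 2 Slc23a2 probe sets had the WT arrays in the same order, and on the IE-Cpr-null arrays the order differed by an exchange of replicates 1 and 2, close to a tie in the second probe set, and of replicates 3 and 4. They differed in size from array to array. The leading one minus the second was -0.48, -0.069, 0.38 and 0.069 on the WT arrays, a mean of -0.023 (SD 0.357, n = 4). On the IE-Cpr-null arrays it was 0.42, 0.50, 0.022 and 0.20, a mean of 0.28 (SD 0.217, n = 4), so that the second probe set was the lower one on all 4 of those arrays. The largest of these gaps, 0.50, fell on IE-Cpr-null replicate 2, where hepatocyte markers were high, and the smallest of that genotype, 0.022, on replicate 3, where they were also high. No test was made of the gap, since both probe sets belong to the contrast used to choose the gene.

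**Figure D2:**
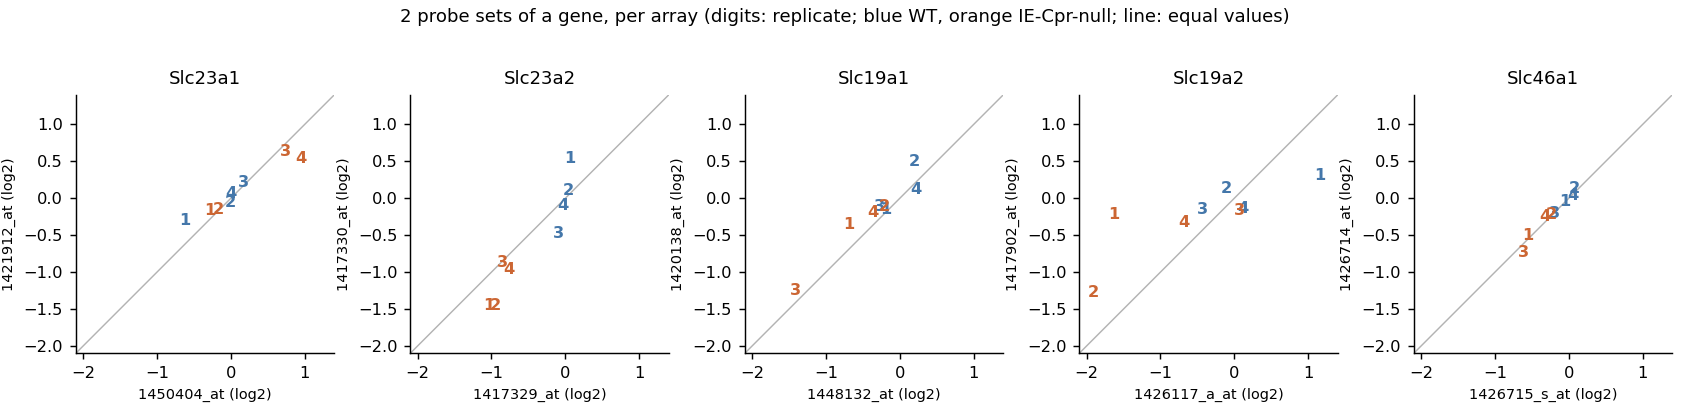
The first probe set of a gene (horizontal axis) against its second (vertical axis), both in log2 relative to the WT median, for the 5 genes with 2 probe sets, with blue digits for WT and orange digits for IE-Cpr-null replicates. Slc46a1 arrays lie closest to the line of equal values, with a largest gap of 0.12, Slc19a1, Slc23a1 and Slc23a2 have largest gaps of 0.34, 0.41 and 0.50, and Slc19a2 departs most, by 1.41 on IE-Cpr-null replicate 1.

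Slc23a1, the apical ascorbate transporter of the gut, was higher on average in IE-Cpr-null, with arrays that overlapped. The first of its probe sets, 1450404_at, read -0.62, -0.0046, 0.17 and 0.0046 on the WT arrays and -0.29, -0.17, 0.73 and 0.94 on the IE-Cpr-null arrays. Only IE-Cpr-null replicates 3 and 4 lay above the WT arrays, and replicates 1 and 2 lay within their range. The difference was 0.42 (SE 0.319, 95% interval -0.33 to 1.16). In the other probe set, 1421912_at, the values were -0.30, -0.056, 0.21 and 0.056 in WT against -0.17, -0.15, 0.63 and 0.53 in IE-Cpr-null, with a difference of 0.24 (SE 0.216, 95% interval -0.27 to 0.74). Replicates 3 and 4 were again the high ones. Over the alternatives the first probe set differed by 0.20 (without IE-Cpr-null replicate 4) to 0.81 (SE 0.243, array weights), and the other by 0.097 (without replicate 3) to 0.43 (SE 0.151, array weights). Without weights, the intervals leave room for a lower as well as a higher Slc23a1 signal in IE-Cpr-null.

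Slc46a1, the proton-coupled folate transporter, had the most concordant pair of probe sets. Probe set 1426715_s_at, whose ID marks probes that can match more than 1 transcript, read -0.058, 0.076, -0.19 and 0.058 on the WT arrays and -0.56, -0.24, -0.62 and -0.32 on the IE-Cpr-null arrays. Its partner 1426714_at read -0.039, 0.13, -0.21 and 0.039 in WT against -0.50, -0.22, -0.74 and -0.25 in IE-Cpr-null. All IE-Cpr-null arrays lay below all WT arrays in both, by a narrow margin: WT replicate 3 at -0.19 and -0.21 against IE-Cpr-null replicate 2 at -0.24 and -0.22. The differences were -0.41 (SE 0.102, 95% interval -0.64 to -0.17) and -0.41 (SE 0.128, 95% interval -0.71 to -0.11), each a 1.33-fold lower signal. The pair differed from each other by at most 0.12 on any array.

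Slc19a1, the reduced folate carrier, was lower on average and overlapped between the genotypes. Probe set 1448132_at read -0.19, 0.19, -0.27 and 0.22 in WT against -0.69, -0.22, -1.42 and -0.37 in IE-Cpr-null, a difference of -0.66 (SE 0.266, 95% interval -1.28 to -0.042). Probe set 1420138_at read -0.15, 0.49, -0.12 and 0.12 in WT against -0.36, -0.12, -1.24 and -0.19 in IE-Cpr-null, a difference of -0.56 (SE 0.269, 95% interval -1.19 to 0.064). One array stood below the rest in both, IE-Cpr-null replicate 3, at -1.42 and -1.24. Without it the differences were -0.41 and -0.31.

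Slc19a3, the second thiamine transporter, had its lowest array in common with both folate carriers, over a wider range. Its single probe set, 1450348_at, read -0.10, 0.59, -0.84 and 0.10 in WT against -1.21, -0.36, -2.63 and -0.65 in IE-Cpr-null. WT replicate 3 was below IE-Cpr-null replicates 2 and 4, so the groups overlapped, and IE-Cpr-null replicate 3 was the lowest value of any member. The difference was -1.15 (SE 0.523, 95% interval -2.37 to 0.067), or -0.68 without IE-Cpr-null replicate 3.

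Some markers of the proximal small intestine had their highest and lowest arrays in common with the gene means of Slc46a1, Slc19a1 and Slc19a3. All 7 markers listed were measured, 5 lower and 2 higher in IE-Cpr-null, with list means of -0.075, 0.76, -0.38 and 0.079 on WT replicates 1 to 4 and -0.42, -0.50, -1.98 and -0.28 on IE-Cpr-null replicates 1 to 4. Slc40a1, the iron exporter ferroportin, read -0.45, 1.43, -0.68 and 0.45 in WT against -0.88, -2.19, -8.19 and -0.51 in IE-Cpr-null. Pdx1, a transcription factor of the duodenum, read -0.37, 1.18, -0.75 and 0.37 in WT against -0.38, -0.35, -4.25 and -0.21 in IE-Cpr-null. Like the gene means of Slc46a1, Slc19a1 and Slc19a3, both were highest on WT replicate 2 and lowest on IE-Cpr-null replicate 3, and lower on WT replicate 3 than on any other WT array. Cybrd1 had the same highest and lowest arrays, with IE-Cpr-null arrays only from -1.36 to -1.04. IE-Cpr-null replicate 2 was the second lowest array for Slc40a1. For Cybrd1 and for the gene means of Slc46a1 (-0.23), Slc19a1 (-0.17) and Slc19a3 (-0.36) it was the highest of that genotype. Gata4, Fabp1, Ada and Lct, also on that list, stayed between -0.25 and 0.13 on all arrays. Of the distal markers, 4 of 6 were measured, 2 higher and 2 lower. Fabp6 and Slc10a2 lay between -0.077 and 0.13 on all arrays, a range in which a gene with too little signal would also lie. Slc51a, a bile acid exporter subunit, differed by -0.20 (SE 0.0805), and Nr1h4, the bile acid receptor, ran from -0.64 to 0.43. Pancreatic acinar markers also had their highest mean on WT replicate 2 (1.57) and their lowest on IE-Cpr-null replicate 3 (-5.09), with WT replicate 3 the lowest WT array (-4.87). All 10 measured acinar genes were lower in IE-Cpr-null, and replicates 2 and 4 of that genotype, at -4.98 and -4.99, were almost as low as replicate 3. The part of the intestinal region and of pancreatic RNA in these differences was not tested.

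**Figure D3:**
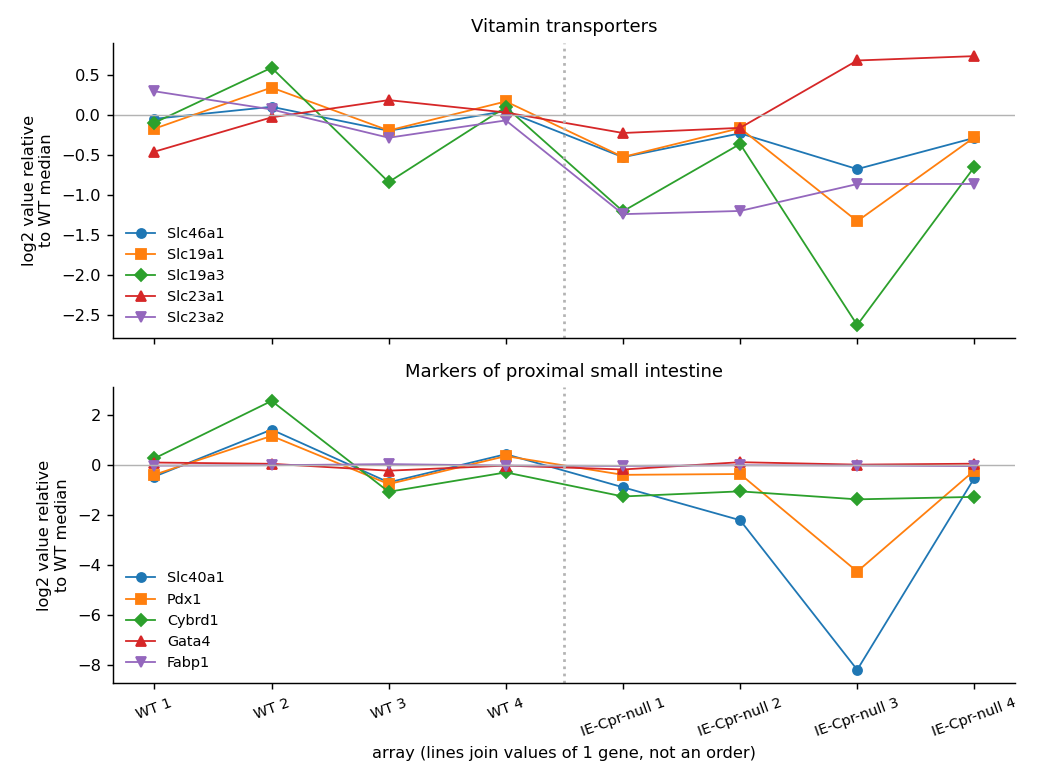
Log2 values relative to the WT median (vertical axes) of 5 vitamin transporters, as the mean of their probe sets (top), and of 5 markers of the proximal small intestine (bottom), on each of the 8 arrays, with the dotted line between the genotypes. Slc19a3 at -2.63, Slc19a1, Slc40a1 at -8.19 and Pdx1 at -4.25 all have their lowest value on IE-Cpr-null replicate 3, where Slc23a2 does not.

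Slc19a2, the first thiamine transporter, had another array pattern. Probe set 1417902_at read 0.31, 0.14, -0.15 and -0.14 in WT against -0.22, -1.28, -0.16 and -0.33 in IE-Cpr-null, a difference of -0.54 (SE 0.256, 95% interval -1.14 to 0.06). The groups did not overlap but almost touched, at -0.15 on WT replicate 3 and -0.16 on IE-Cpr-null replicate 3. IE-Cpr-null replicate 2 stood well below the others, and without it the difference was -0.28. The other probe set, 1426117_a_at, also has an ID that marks probes that can match more than 1 transcript. It read 1.16, -0.11, -0.43 and 0.11 in WT against -1.63, -1.91, 0.073 and -0.69 in IE-Cpr-null, a difference of -1.22 (SE 0.509, 95% interval -2.41 to -0.034). Here WT replicate 1 stood high and IE-Cpr-null replicates 1 and 2 low, the same arrays as in the second Slc23a2 probe set. The probe sets of Slc19a2 disagreed by 1.41 on IE-Cpr-null replicate 1, more than the difference between the genotypes in either. IE-Cpr-null replicate 2, lowest in both, was the array highest in hepatocyte markers (5.00), while replicate 3, also rich in them (2.94), was the highest IE-Cpr-null array in both. Without these 2 arrays the differences were -0.31 in 1417902_at and -1.34 in 1426117_a_at. The part of hepatocyte RNA in the Slc19a2 values was not tested.

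Slc5a6, the carrier of biotin and pantothenate, was measured by 1 probe set, 1435860_at. It read -0.41, 0.015, 0.091 and -0.015 in WT against -0.21, 0.34, 0.056 and 0.34 in IE-Cpr-null. The arrays overlapped, and IE-Cpr-null replicates 2 and 4 were above all WT arrays. The difference was 0.21 (SE 0.158, 95% interval -0.16 to 0.58). It was 0.10 without WT replicate 1, the lowest array, and 0.33 without IE-Cpr-null replicate 1, 0.33 with array weights (SE 0.0985) and 0.36 without the muscle-rich arrays.

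**Figure D4:**
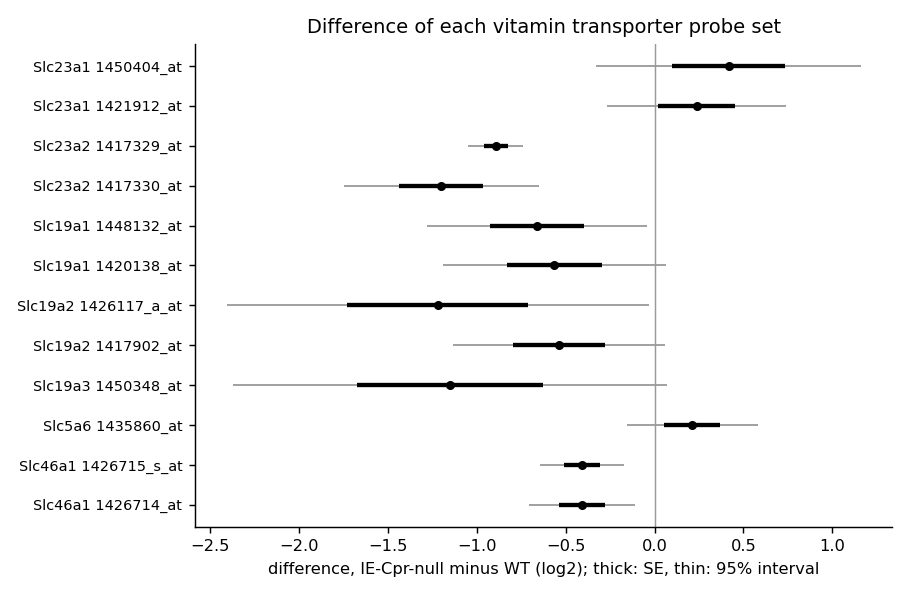
Difference between IE-Cpr-null and WT of each of the 12 probe sets (horizontal axis, log2), as a point with its SE (thick bar) and 95% interval (thin bar) from the limma fit, 4 arrays per genotype. Intervals of both Slc23a2 and both Slc46a1 probe sets lie wholly below 0, as do those of 1 Slc19a1 and 1 Slc19a2 probe set, and those of Slc23a1 and Slc5a6 span 0.

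The transcripts most like Slc23a2 were looked for by the root mean square difference from it over the 8 arrays. All probe sets with 1 symbol, other than those of the transporters, were searched. A search over arrays that include the genotype difference favours transcripts lower in IE-Cpr-null, so nothing is read from the nearness. Nearest to the leading probe set were Rdh16f2 (0.137), a retinol dehydrogenase family gene, Aadac (0.197), an arylacetamide deacetylase, Ppme1 (0.199), a protein phosphatase methylesterase, Cpt1a (0.224), the carnitine palmitoyltransferase of fatty acid oxidation, and Ccl6 (0.229), a chemokine. All 5 were nearer to it than the second Slc23a2 probe set was (0.326). Rdh16f2 read -0.06, 0.06, -0.31 and 0.063 in WT against -1.13, -0.96, -0.72 and -0.54 in IE-Cpr-null. Nearest to the second Slc23a2 probe set were Tmem267 (0.168), Aadac (0.286), Gphn (0.286), which encodes the molybdenum cofactor enzyme gephyrin, Bche (0.292), a butyrylcholinesterase, and Xylb (0.301), a xylulokinase. Aadac was thus the only gene in both groups of 5. Its values were 0.09, 0.024, -0.50 and -0.024 in WT against -1.13, -1.02, -0.51 and -0.83 in IE-Cpr-null.

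Beyond the transporters, 8 lists of other genes of vitamin handling and of the same carrier families held 103 genes, of which 75 were measured. Tested as the mean of each gene's probe sets over all 10401 genes, 0 of the 75 passed an adjusted p of 0.05 in limma, beside 0.0288% of all genes, and 14 had an unadjusted p under 0.05, which 8.69% of all genes had. With array weights 5 of the 75 passed, near the share of all genes that passed in that fit (5.63%). Of the 75, 33 were higher and 42 lower, where 42.4% of all genes were lower. The median was -0.024 against 0.016 over all genes. In 6 of them, all lower, the genotypes did not overlap, which is 8.0% beside 4.85% of all genes without overlap in either direction. Of all 10401 genes, 312 were lower and 192 higher without overlap. In 20 of the 75 every array lay within 0.15 of 0, and without levels such genes cannot be told from ones with too little signal to measure.

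Of the 10 measured genes of ascorbate handling, 4 were higher and 6 lower (median -0.027). Slc2a2, the GLUT2 carrier that takes up sugars and also dehydroascorbate, read -0.11, 0.062, -0.031 and 0.031 in WT against -0.32, -0.35, -0.35 and -0.15 in IE-Cpr-null without overlap, a difference of -0.28 (SE 0.0604, adjusted p = 0.242). The other dehydroascorbate carriers, Slc2a1 and Slc2a3, differed by -0.0029 (SE 0.21) and 0.024 (SE 0.0355). Slc2a3 lay between -0.032 and 0.066 on all arrays, a range in which a gene with too little signal would also lie. Cybrd1, the duodenal ferric reductase that uses ascorbate and that is also a proximal marker, had the largest difference, -1.61 (SE 0.7, adjusted p = 0.585), with WT arrays from -1.06 to 2.58. Among 12 ascorbate-dependent enzymes 9 were higher and 3 lower (median 0.034), where 42.4% of all genes were lower and their median was 0.016. Some of the 12, on both sides, lay within 0.15 of 0 on every array, where a sign may carry no signal. Bbox1, the hydroxylase of carnitine synthesis, had the smallest p of all 75 genes. It read 0.027, 0.20, -0.21 and -0.027 in WT against -0.63, -0.42, -0.57 and -0.58 in IE-Cpr-null, a difference of -0.55 (SE 0.0892) that missed the threshold (adjusted p = 0.134).

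Thiamine handling had 2 genes higher and 5 lower of 7 (median -0.068). Pdha1, a subunit of the thiamine-dependent pyruvate dehydrogenase, differed by -0.17 (SE 0.0553, adjusted p = 0.441) without overlap. Folate handling had 3 higher and 5 lower of 8 (median -0.071), led by Mthfd1, an enzyme of folate interconversion, at -0.41 (SE 0.24, adjusted p = 0.74). For biotin and pantothenate 5 of 14 were higher and 9 lower (median -0.054). The biotin-dependent carboxylase subunits Mccc1, at -0.36 (SE 0.117, adjusted p = 0.432), and Pccb, at -0.30 (SE 0.111, adjusted p = 0.496), did not overlap between the genotypes.

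Cubn, which encodes the ileal receptor for cobalamin bound to intrinsic factor, had the largest difference among the listed genes without overlap. Its values were 0.078, -0.54, -0.058 and 0.061 in WT against -1.47, -2.46, -0.71 and -0.82 in IE-Cpr-null, a difference of -1.25 (SE 0.381, adjusted p = 0.392). Of the 10 cobalamin genes 4 were higher and 6 lower (median -0.031), and Amn, the partner of the Cubn product at the membrane, differed by 0.062 (SE 0.137). Riboflavin, B6 and niacin genes split 3 and 3 (median 0.024). In that list Slc5a8, a sodium-coupled carrier of nicotinate and lactate, read 0.033, -1.01, 0.69 and -0.033 in WT against 0.52, 1.12, 1.14 and 1.48 in IE-Cpr-null, a difference of 1.14 (SE 0.36, adjusted p = 0.406). Its arrays overlapped, with WT replicate 2 low and WT replicate 3 above IE-Cpr-null replicate 1. Among 8 other members of the same carrier families, 3 were higher and 5 lower (median -0.049), with Slc5a4b, a relative of the sodium-glucose carriers, at -0.52 (SE 0.146, adjusted p = 0.349).

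**Figure D5:**
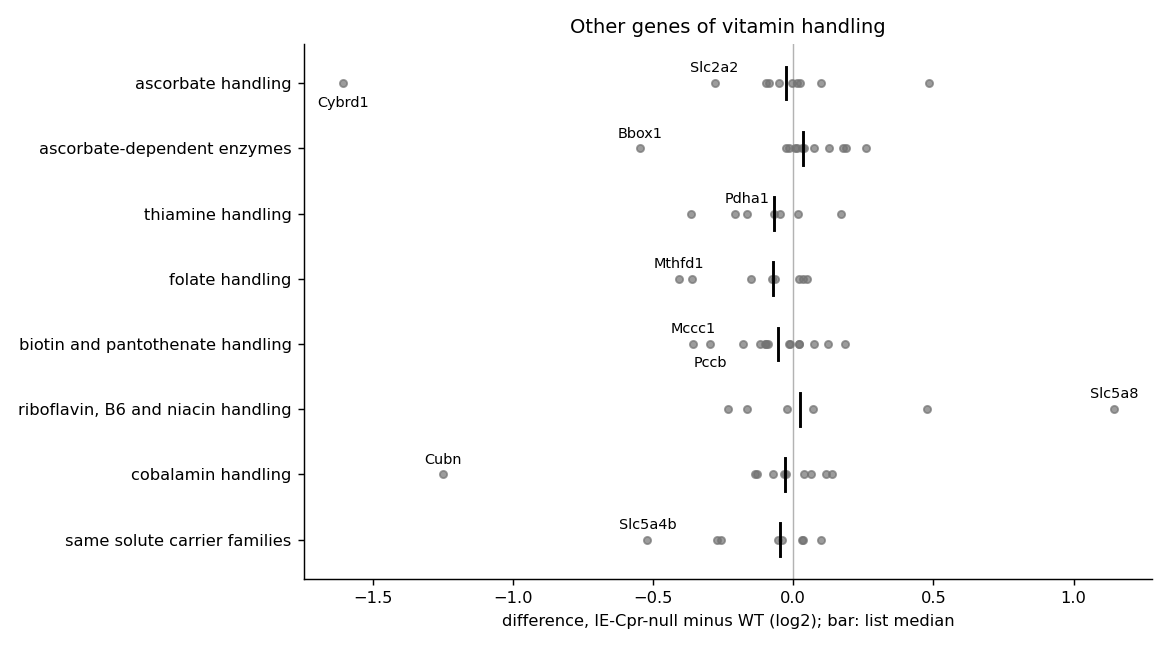
Difference between IE-Cpr-null and WT (horizontal axis, log2) of the 75 measured genes of the 8 lists, 1 point per gene and a bar at each list median. The medians lie between -0.071 and 0.034, and Cybrd1, Cubn and Slc5a8 stand apart from their lists, none past the threshold.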

How the data were processed

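Expression in small-intestinal enterocytes was measured on 4 arrays per genotype, each of RNA pooled from 2 mice. The deposited table holds log2 values per probe set and array, made by the authors with GCRMA per the submitters' processing notes. Neither its version nor a genome build is given in the sources used here. In each of the 18443 probe sets the WT arrays had a median of 0 (within 1e-05), so the values had been centred and levels are lost. Array medians ran from -0.025 to 0.036. The log2 scale is taken from GCRMA, and the centring is known only from the values.

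Probe sets were named from the platform annotation, 16689 with 1 symbol, 616 with several and 1138 not named in it. Each probe set, and each gene as the mean of its probe sets, was fitted with limma 3.58.1 (R 4.3.3) on 2 group means, two-sided, with Benjamini-Hochberg adjustment over all 18443 probe sets or 10401 genes and a threshold of 0.05. No filter on dim probe sets could be set. The scripts were checked on simulated data. The number of arrays limits precision.

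The members, lists and tests were chosen with earlier results of these data known. Genes were named by rule: all members, and in each list the genes past the threshold or else the one with the smallest p, and up to 4 without overlap. Cybrd1, Slc40a1, Pdx1, Gata4, Fabp1, Ada, Lct, Fabp6, Slc10a2, Slc51a, Nr1h4, Slc2a1, Slc2a3, Amn, Slc52a3 and Pdxk were named after their values were seen. Alternatives were array weights, quantile normalization, centring of array medians, the replicate number as a block and a robust prior. Others were no probe sets with an ID ending in _x_at, _s_at or _a_at, and each array left out. Leaving out the muscle-rich arrays (WT 2, IE-Cpr-null 1) or the hepatocyte-rich arrays (IE-Cpr-null 2 and 3) was added after seeing the data.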

Additional observations from a re-analysis of the deposited data

Results flagged for a closer look

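Among 44 groups of 4 arrays, 12 probe sets and 10 marker lists in each genotype, 4 had a single array far from the other 3 by Dixon's test. Chance flags about 1 in 20 groups. Slc19a2 (1417902_at) read -1.28 on IE-Cpr-null replicate 2 against -0.33 to -0.16 on the other arrays of that genotype. The proximal small intestine markers had a mean of -1.98 on IE-Cpr-null replicate 3 against -0.50 to -0.28. The smooth muscle and stroma markers had a mean of 4.48 on IE-Cpr-null replicate 1 against -0.47 to -0.43. The pancreatic acinar markers had a mean of -1.91 on the same array against -5.09 to -4.98. What set these arrays apart was not tested.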

How the results depend on the processing

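Over 16 alternatives, 10 of the 12 transporter probe sets kept the sign of their difference in all. The other 2, 1426117_a_at and 1426715_s_at, kept it in the 15 that held them. The sign could not turn with the replicate block, the robust prior or the removal of probe sets by ID, which leave each difference unchanged. The number of transporter probe sets past the threshold, 1 as reported, was 0 with quantile normalization, 0 without the hepatocyte-rich arrays, 0 without the muscle-rich arrays and 3 with array weights, where the second Slc23a2 and 1 Slc46a1 probe set were added and 4.02% of all probe sets passed (741 against 4). It was 0 with the replicate block, where the leading Slc23a2 probe set had an adjusted p of 0.295 at the same difference of -0.89, and 0 to 1 when 1 array was left out. The leading Slc23a2 probe set passed in 9 of the 16 (adjusted p from 0.00265 to 0.295), and its difference ran from -0.94 to -0.70. Fewer arrays are fitted where arrays are left out, but why the number past the threshold changed between settings was not tested. The number of other vitamin genes past the threshold, 0 as reported, was 5 with array weights (Bbox1, Slc52a3, Pdxk, Slc5a8 and Slc5a4b) and 0 in every other setting run. Over all probe sets, deviations of same-numbered arrays correlated at -0.058, -0.041, 0.26 and 0.13, so the numbers are not taken to pair the arrays. With the block the SE of Slc19a3 fell from 0.523 to 0.195. It also fell for Slc46a1, Slc19a1, Slc5a6 and Slc23a1, and rose for both probe sets of Slc23a2 and of Slc19a2. The filter on dim probe sets was not run because the values hold no levels. Leaving out 1 array moved the difference of Slc19a3 to between -1.43 and -0.68. Signal over background is unknown, which limits every statement on small differences.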
